A study of Mus musculus with 16 samples.

Results

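The 10 neuropeptide genes described here mark, or are made by, classes of cortical interneuron, and were followed in laser-captured cells of the embryonic mouse cortex. The members were chosen by symbol: Sst, Npy, Vip, Cck, Tac1, Penk, Pdyn, Crh, Nts and Pnoc, so the set holds 10 of the 24539 genes in the count table. All 10 were listed in the table, 9 had at least 1 read count in some library, and 6 (Sst, Npy, Cck, Tac1, Penk and Pdyn) had enough counts to be tested.

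The material came from CD1 mouse embryos of embryonic day 14.5 of genotype GAD67-GFP+/-, in which green fluorescent protein is made where the GABA-synthesising enzyme gene Gad1 is active. About 100 GFP-positive cells were cut from each of 10 sections of 10 µm, at the front of the migrating stream in the cortical plate of paraformaldehyde-fixed brain, which gave about 1000 cells per embryo. Each library is 1 embryo recorded as male, with 1 embryo taken per litter, and each of the 4 groups has 4 libraries. The first group came from dams that received corn oil by gavage on gestational days 11 to 14 and no restraint ("vehicle"). The second came from dams that received alpha-cypermethrin, a pyrethroid insecticide, at 10 mg/kg on the same days ("cypermethrin"). The third came from corn oil dams that were also restrained under bright light in 3 sessions of 45 min on each of days 12 and 13, with a last round on day 14 ("stress"). The fourth received both ("both exposures"). In every group the last gavage was 90 min before euthanasia, and in the restrained groups the last restraint ended 15 min before it.

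Neuropeptides are short signalling peptides that are cut from larger precursor proteins inside dense-core vesicles and released beside a fast transmitter such as GABA. In the adult cortex Sst cells and many Npy cells are interneurons born in the medial ganglionic eminence. Vip and many Cck cells come from the caudal eminence, and Tac1, Penk, Pdyn, Crh, Nts and Pnoc label smaller classes of cells. Several of the genes are also active outside interneurons: Cck in cortical pyramidal neurons, and Tac1, Penk and Pdyn in striatal projection neurons.

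Sequences just upstream of the start sites are shown for the 3 members with the highest levels and for Vip, which was nearly undetected, because Sst is a textbook target of the cyclic AMP response element (CRE), the site bound by the transcription factor CREB. Each window runs from 250 bases before to 50 bases after the start in RefSeq (build GRCm38.p6), 5′ to 3′ on the gene's strand, and windows were found for 7 of the 10 members. Sst lies on the minus strand at chr16:23890795-23891094, Npy on the plus strand at chr6:49822460-49822759, Cck on the minus strand at chr9:121495645-121495944 and Vip on the plus strand at chr10:5638968-5639267. Capitals mark TGACGTCA, the CRE palindrome, or its 5-base core TGACG on either strand (CGTCA when it lies on the other strand).
Sst: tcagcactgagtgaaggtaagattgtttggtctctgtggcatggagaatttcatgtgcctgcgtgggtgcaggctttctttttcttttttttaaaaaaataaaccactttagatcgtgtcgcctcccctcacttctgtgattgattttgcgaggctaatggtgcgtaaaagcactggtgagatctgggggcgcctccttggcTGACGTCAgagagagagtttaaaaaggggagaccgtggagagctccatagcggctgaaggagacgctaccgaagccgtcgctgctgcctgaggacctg
Npy: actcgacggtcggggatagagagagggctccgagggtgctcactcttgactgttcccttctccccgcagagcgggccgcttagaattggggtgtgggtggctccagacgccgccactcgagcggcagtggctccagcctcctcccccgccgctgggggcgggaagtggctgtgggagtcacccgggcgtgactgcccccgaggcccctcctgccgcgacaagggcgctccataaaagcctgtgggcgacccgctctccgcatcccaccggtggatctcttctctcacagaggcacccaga
Cck: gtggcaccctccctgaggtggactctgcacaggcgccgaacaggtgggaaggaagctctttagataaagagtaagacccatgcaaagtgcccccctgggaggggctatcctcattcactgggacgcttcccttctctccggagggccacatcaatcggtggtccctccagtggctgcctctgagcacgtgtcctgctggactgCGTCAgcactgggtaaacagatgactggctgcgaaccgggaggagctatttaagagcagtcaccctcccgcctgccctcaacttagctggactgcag
Vip: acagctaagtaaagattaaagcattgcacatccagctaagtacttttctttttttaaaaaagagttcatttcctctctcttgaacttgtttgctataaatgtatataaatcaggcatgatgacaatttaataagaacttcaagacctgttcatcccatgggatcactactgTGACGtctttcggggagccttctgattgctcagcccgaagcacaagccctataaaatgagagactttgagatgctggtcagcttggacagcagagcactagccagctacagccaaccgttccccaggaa
The full palindrome was found in Sst alone of the 7 members with a window, at positions -48 to -41 from the start, where it also holds the core on both strands. It occurred in 1.79% of the 32851 mouse promoter windows searched. The core was found in 5 of the 7 members (Sst, Vip, Cck, Tac1 and Nts) and in 20.8% of all windows, and Npy held neither. The homeodomain core TAATTA was found in Tac1 among the members and in 5.29% of all windows. These matches describe letters in a window and not bound sites.

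Before the members' values, 4 properties of the libraries bear on them. Total counts ran from 2291283 to 4324129 per library. The library labelled stress replicate 1 had 9521 counts of Xist, the RNA of the inactive X chromosome in female cells, where each of the other 15 had at most 26, and it had 1 count in all of the Y-linked genes Uty, Ddx3y, Eif2s3y and Kdm5d, where the others had at least 555. It therefore went against its label of male, and each tested difference named below that includes the stress group is also given without it. A code in the library descriptions divides the samples into 7 and 9, and values within each code are given for the tested genes with an unadjusted p under 0.05. The first code, of 7 libraries, holds only 1 cypermethrin library, so its values that use the cypermethrin group rest on 1 embryo of that group. Interneuron markers were present throughout (all 10 listed had counts, with a summed level of 1204 to 2015 CPM, counts scaled to equal library size), but so were all 10 markers of glutamatergic neurons (4479 to 7486 CPM summed), all 8 of Cajal-Retzius cells (1793 to 3574 CPM) and 8 of 9 of striatal projection neurons (43.8 to 157 CPM), with Isl1 of the striatal list at 0 in every library. All 11 markers of radial glia and progenitors also had counts, with a summed level of 853 to 1270 CPM. Markers of pericytes and meningeal fibroblasts summed to 1336 to 4050 CPM, and those of endothelium to 110 to 468 CPM. Those of microglia and macrophages summed to 43.0 to 413 CPM, and those of red blood cells to 24.6 to 277 CPM. The captured material, which the records name as neural progenitor cells, therefore held markers of progenitors, of postmitotic neurons and of non-neural cells. In such samples fewer cells of a type and less RNA per cell cannot be told apart.

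All 10 genes are protein coding, and no other gene of the table overlaps them in the GENCODE vM21 annotation of build GRCm38 (mm10). Sst lies at chr16:23889573-23890958, Npy at chr6:49822710-49829507, Cck at chr9:121489824-121495694 and Pnoc at chr14:65400673-65425472. Somatostatin and neuropeptide Y made up most of the neuropeptide message. Sst, which encodes the precursor of the inhibitory peptide somatostatin, took 74.3% of the 14779 counts summed over the 10 genes, and between 61.2% and 84.7% in single libraries. Npy, which encodes neuropeptide Y, took 15.7%, and Cck, which encodes cholecystokinin, took 6.87%. Per kb of exon, the scale on which genes of different length can be set side by side, Sst had 275 ± 102 CPM per kb (SD, n = 16), Npy 71.7 ± 17.0 and Cck 12.7 ± 13.0. Sst was thus 3.83 times Npy and 21.7 times Cck on this scale. For scale, Lhx6, the transcription factor gene that specifies medial eminence interneurons, had 58.4 CPM per kb, and the enzyme gene Gad2 of the GABA pathway had 46.1 CPM per kb. Of the 18242 genes with a count and a known exon length, 99.7% had a lower level per kb than Sst, 97.9% a lower level than Npy and 79.9% a lower level than Cck.

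The other members were sparse. Penk (preproenkephalin), Pdyn (prodynorphin), Tac1 (the precursor of substance P) and Pnoc (the precursor of nociceptin) had means of 0.965 ± 1.19, 0.908 ± 1.01, 0.711 ± 0.791 and 0.554 ± 1.22 CPM per kb (SD, n = 16), and their order does not exceed this spread. Nts, the neurotensin gene, had 11 counts in 4 libraries, and Vip had 1 count in 1 library. Crh, which encodes corticotropin-releasing hormone, had no count in any library, which allows up to 3 counts per library, or between 0.662 and 1.43 CPM depending on its depth. These limits cover counting error only.

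**Figure D1:**
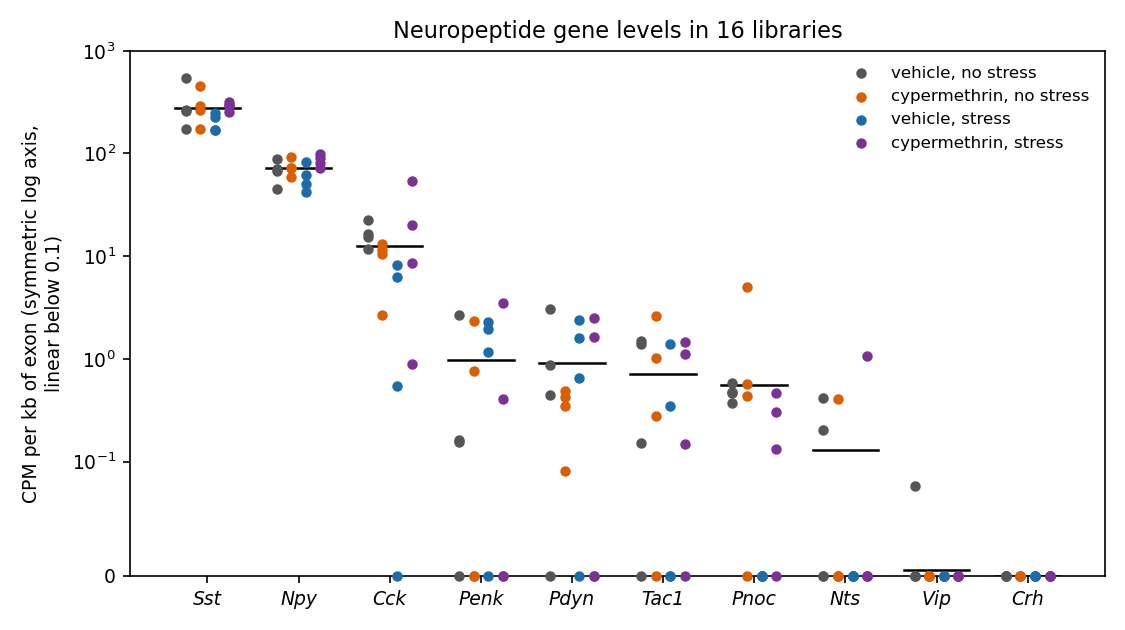
Level of each neuropeptide gene per library in CPM per kb of exon, on a symmetric log axis that is linear below 0.1. Points are libraries coloured by exposure group and lines are means over 16 libraries. Sst and Npy have no library at 0, while every gene to the right of Cck has several.

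Sst had counts of 257 to 1169 in every library. Its levels in the 4 vehicle libraries, in replicate order, were 394, 124, 190 and 187 CPM. With cypermethrin they were 211, 190, 124 and 327 CPM, and with both exposures 214, 185, 211 and 230 CPM. With stress they were 122, 122, 178 and 162 CPM. The stress libraries reached at most 178 CPM and those of both exposures were at least 185 CPM. This pair of groups was not among the pairs compared, and it is named after its values were seen. The share of all genes without overlap was not computed for it, so the separation cannot be judged. For scale, groups did not overlap for 2.52% of tested genes with cypermethrin against vehicle, 2.9% with stress and 2.62% with both exposures. The vehicle and cypermethrin groups each reached down to 124 CPM and so overlapped with the stress group. The spread between libraries was widest in the vehicle group, with a coefficient of variation of 52.4%, and narrowest with both exposures, with 8.97%.

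Npy was the most even of the detected members, with a coefficient of variation of 23.7% over 16 libraries. Its levels were 50.5, 25.6, 38.1 and 39.9 CPM with vehicle and 33.3, 52.7, 40.9 and 40.6 CPM with cypermethrin. They were 35.2, 23.8, 28.5 and 46.7 CPM with stress and 45.9, 40.6, 55.4 and 51.1 CPM with both exposures. All 4 groups overlapped. Each library had between 3.02 and 8.05 Sst counts for every Npy count, a ratio that does not depend on library scaling, and its group medians were 4.91 with vehicle, 4.97 with cypermethrin, 4.31 with stress and 4.52 with both exposures. Sst counts per Lhx6 count had medians of 0.796, 0.955, 0.448 and 0.688 in the same order. They ran from 0.371 to 1.33 with vehicle, 0.423 to 1.23 with cypermethrin, 0.423 to 0.611 with stress and 0.615 to 1.04 with both exposures. The stress range overlapped those of vehicle and cypermethrin but ended just below that of both exposures. The pair of stress and both exposures is again named after its values were seen. No share of all genes was computed for such ratios, so this separation cannot be judged either.

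Cck varied far more. Its levels were 15.2, 29.4, 20.2 and 21.6 CPM with vehicle and 13.6, 17.3, 3.45 and 14.9 CPM with cypermethrin. With stress they were 0, 8.14, 0.712 and 10.6 CPM, all below the lowest vehicle library. With both exposures they were 1.16, 70.8, 11.3 and 26.4 CPM, so that this group held both the highest level of all and one close to 0. In the library at 70.8 CPM (both exposures replicate 2) the glutamatergic markers summed to 5196 CPM, inside the range of the other libraries, and in the one at 0 (stress replicate 1) they summed to 7486 CPM, the highest of all. Whether the make-up of the captured material has a part in the levels of Cck was not tested.

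**Figure D2:**
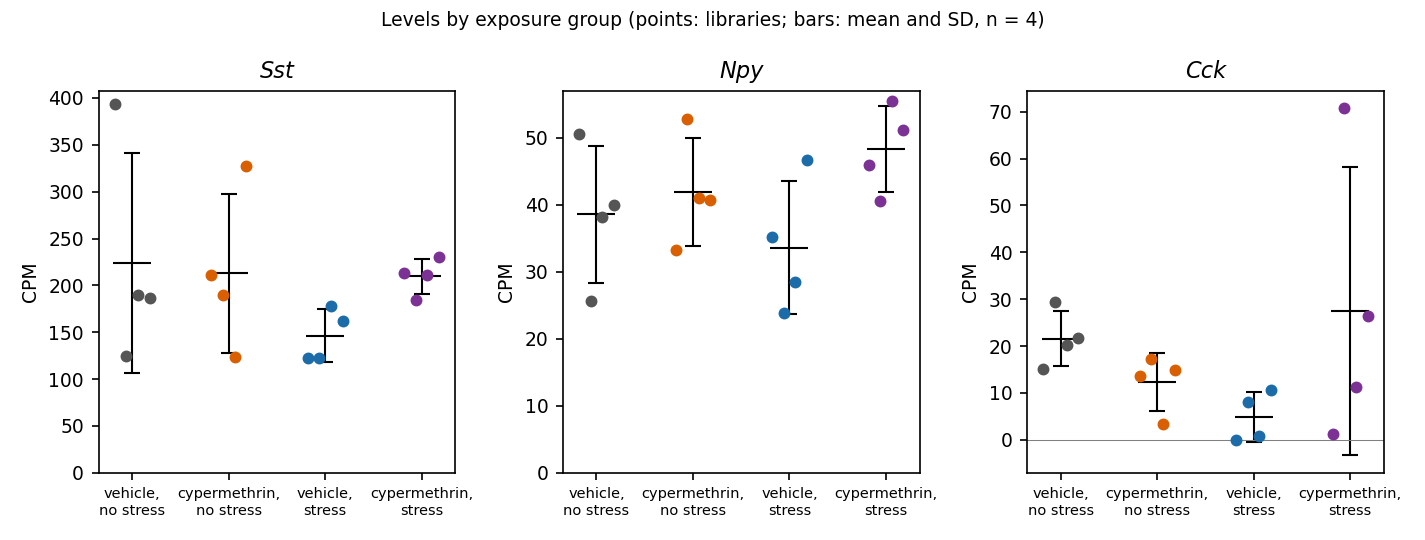
Levels of Sst, Npy and Cck in CPM by exposure group, with 1 point per library and the mean and SD of each group (n = 4). The Cck points of the stress group lie between 0 and 10.6 CPM, below the vehicle points at 15.2 to 29.4 CPM. For Sst and Npy the stress and vehicle groups overlap.

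The sparse opioid and tachykinin precursors came up in some embryos and were missing from others of the same group. Pdyn had 0, 33, 10 and 5 counts with vehicle, 4, 4, 1 and 3 with cypermethrin, 0, 22, 13 and 8 with stress and 0, 0, 33 and 19 with both exposures. Tac1 had 15, 0, 19 and 2 counts with vehicle, 35, 0, 13 and 2 with cypermethrin, 10, 0, 0 and 5 with stress and 17, 0, 17 and 2 with both exposures. Penk had 0, 1, 1 and 17 counts with vehicle, 15, 4, 0 and 0 with cypermethrin, 4, 0, 9 and 16 with stress and 0, 25, 3 and 0 with both exposures. Libraries with none and libraries with 10 or more counts stood side by side in each group for Tac1, and in 3 of the 4 groups for Pdyn (all but cypermethrin), which had at most 4 counts with cypermethrin. For Penk the same held in all 4 groups.

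Pnoc had 3, 3, 5 and 4 counts in the vehicle libraries and no count in any of the 4 stress libraries. With cypermethrin it had 0, 4, 41 and 2 counts, and with both exposures 1, 0, 3 and 4. Pooled over libraries, the level was 1.03 CPM with vehicle (exact Poisson 95% interval 0.576 to 1.70), and 0 counts over the stress group allow up to 0.243 CPM, taking 3 counts over the group as the floor. That floor lay 2.37-fold below the lower end of the vehicle interval and 4.24-fold below the vehicle level itself. The upper end of the exact Poisson 95% interval with stress was higher than the floor, at 0.299 CPM, and would give smaller folds. The interval and the floor cover counting error only and not the spread between embryos. Cypermethrin replicate 3 held 41 of the 70 counts of the gene, and it also had the highest summed levels of Cajal-Retzius markers (3574 CPM), of pericyte and meningeal markers (4050 CPM), of microglia and macrophage markers (413 CPM) and of endothelial markers (468 CPM). Their part in the Pnoc level was not tested.

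**Figure D3:**
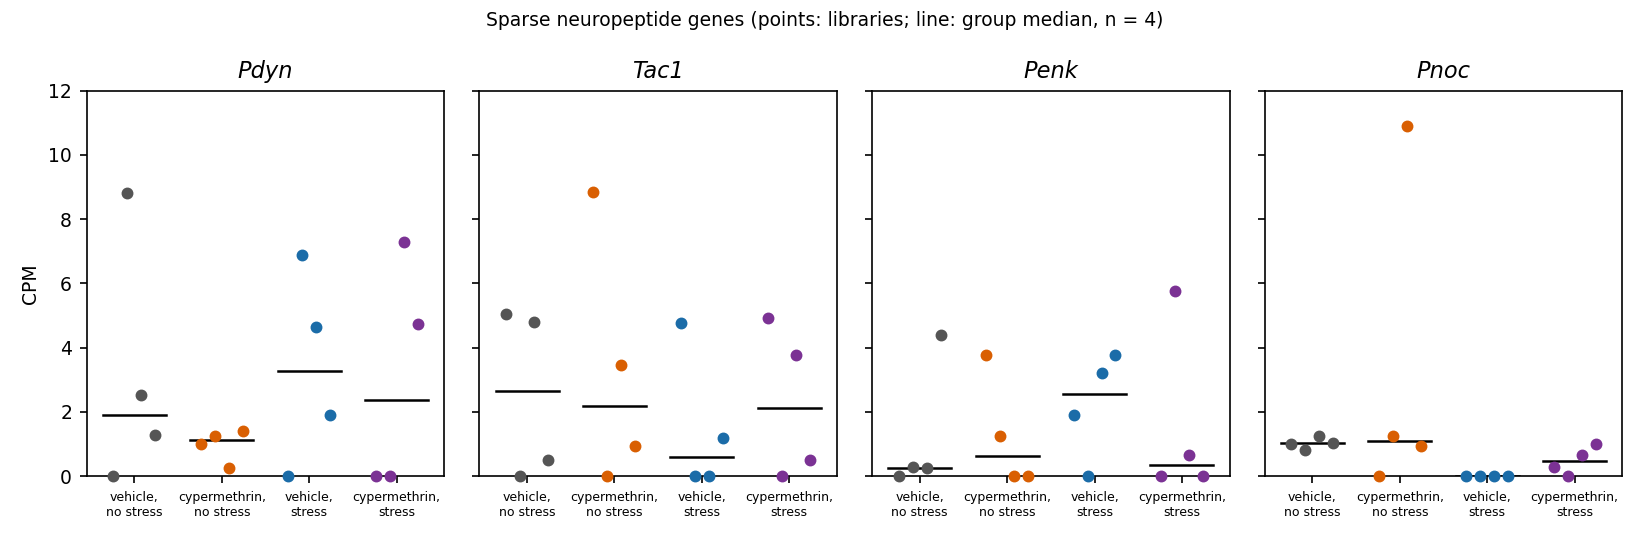
Levels of Pdyn, Tac1, Penk and Pnoc in CPM by exposure group, with 1 point per library and a line at the group median (n = 4). Pnoc lies at 0 in the 4 stress libraries and at 10.9 CPM in 1 cypermethrin library, and the other 3 genes have points at or near 0 in every group.

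The exposures were compared by edgeR's quasi-likelihood test with Benjamini-Hochberg adjustment over 13224 genes, and a gene was called at an adjusted p under 0.05. None of the 6 tested members was called in any of the 6 comparisons, against 0% of all genes called in each. At an unadjusted p under 0.05, members appeared in 2 comparisons: 2 of 6 with stress without cypermethrin (5.08% of all genes) and 1 of 6 in the interaction (4.7% of all genes). None of these 6 had an unadjusted p under 0.05 with cypermethrin without stress (3.71% of all genes), with both exposures (1.49%), with cypermethrin averaged over stress (4.59%) or with stress averaged over cypermethrin (5.13%). DESeq2 and limma voom also called none of the members.

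Stress without cypermethrin was compared with vehicle. Cck differed by -2.10 ± 0.91 on the log2 scale (SE, 4 libraries per group), with a 95% interval of -3.98 to -0.22, from 21.6 ± 5.89 to 4.87 ± 5.31 CPM (SD). Its unadjusted edgeR p was 0.0297 and its adjusted p was 0.965. Its 2 groups did not overlap, as was the case for 2.9% of all tested genes. Without the library labelled stress replicate 1 the difference was -1.71 (edgeR, unadjusted p = 0.0601), and within the 2 library codes it was -2.39 and -1.85. The glutamatergic markers summed to 4667 to 5496 CPM with vehicle and 4695 to 7486 CPM with stress, and the striatal markers to 84.9 to 157 and 43.8 to 95.8 CPM in the same order. Those of pericytes and meningeal fibroblasts summed to 1371 to 3594 and 1336 to 2308 CPM, with 9 of 10 fitted lower with stress, and those of radial glia and progenitors to 853 to 1090 and 1064 to 1156 CPM. The part of these markers in the differences was not tested. Sst had a log2 difference of -0.61 ± 0.29 (SE), with a 95% interval of -1.20 to -0.02, from 224 ± 117 to 146 ± 28.3 CPM (SD), and an adjusted edgeR p of 0.965 (unadjusted 0.042). That of Sst rested on vehicle replicate 1, without which it was -0.19 (edgeR, unadjusted p = 0.489), and within the library code that holds this library it was -1.08, against -0.14 in the other. Without the library labelled stress replicate 1 it was -0.53 (edgeR, unadjusted p = 0.0929). Npy had -0.20 ± 0.36 (SE), with a 95% interval of -0.94 to 0.55, and it was -0.04 without vehicle replicate 1 and -0.22 without the library labelled stress replicate 1. Of the 6 tested members 4 were fitted lower and 2 higher (median -0.40), where 50.8% of all genes were fitted higher and their median was 0.01. Pnoc, which lies below the count filter, had an adjusted p of 0.727 (unadjusted 0.0198) in an edgeR fit without that filter. Its unadjusted edgeR p was 0.0338 without the library labelled stress replicate 1. The share of all genes with such p-values in that fit is not given here. The Pnoc groups did not overlap, at 3 to 5 counts per library with vehicle against 0 with stress. The 2.9% covers tested genes only, and the share without overlap was not computed for genes below the filter.

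Cypermethrin without stress was compared with the same vehicle libraries, which this comparison shares with the previous and the next. Sst and Npy had log2 differences of -0.07 ± 0.29 and 0.12 ± 0.36 (SE, 4 libraries per group), with 95% intervals of -0.66 to 0.51 and -0.62 to 0.86. These intervals leave room for a change of Sst or Npy in either direction. The difference of Sst was -0.35 without cypermethrin replicate 4 and 0.35 without vehicle replicate 1, and that of Npy was -0.03 without vehicle replicate 2 and 0.28 without vehicle replicate 1. Cck had -0.81 ± 0.88 (SE), from 21.6 ± 5.89 to 12.3 ± 6.10 CPM (SD), with an adjusted edgeR p of 0.999, and -0.49 without cypermethrin replicate 3. Of the 6 tested members 3 were fitted higher and 3 lower (median -0.01), where 52.4% of all genes were fitted higher with a median of 0.03.

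Both exposures were compared with vehicle. On the log2 scale Sst differed by -0.09 ± 0.28 (SE, 4 libraries per group), Npy by 0.33 ± 0.36 and Cck by 0.35 ± 0.86, with 95% intervals of -0.68 to 0.49, -0.42 to 1.07 and -1.43 to 2.12. That of Cck was -0.74 without both exposures replicate 2, the library at 70.8 CPM, and 0.74 without replicate 1. That of Sst was 0.33 without vehicle replicate 1 and -0.29 without vehicle replicate 2, and that of Npy was 0.17 without vehicle replicate 2. Of the 6 tested members 3 were fitted higher and 3 lower (median 0.13), where 50.3% of all genes were fitted higher with a median of 0.00. All members had overlapping groups, against 2.62% of all genes whose groups did not overlap.

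The interaction is the log2 difference made by cypermethrin in restrained dams minus that in unrestrained dams. For Cck it was 3.26 ± 1.27 (SE, 4 libraries per group), with a 95% interval of 0.66 to 5.86, an unadjusted edgeR p of 0.0161 and an adjusted p of 0.985. Its mean went from 21.6 CPM with vehicle to 12.3 CPM with cypermethrin in unrestrained dams, and from 4.87 CPM with stress to 27.4 ± 30.7 CPM (SD) with both exposures. The interaction was 2.18 without both exposures replicate 2 (edgeR, unadjusted p = 0.106). Sst and Npy had interactions of 0.59 ± 0.40 and 0.40 ± 0.51 (SE), with 95% intervals of -0.24 to 1.42 and -0.65 to 1.45. Without the library labelled stress replicate 1 it was 2.86 for Cck (edgeR, unadjusted p = 0.0205), 0.51 for Sst and 0.42 for Npy. Within the library codes, of which the first holds only 1 cypermethrin library, that of Cck was 3.79 and 2.51. That of Sst was 0.16 without vehicle replicate 1, and within the library codes it was 1.00 and 0.19. That of Npy was 0.24 without vehicle replicate 1. Of the 6 tested members 5 were fitted higher (median 0.50), where 47.4% of all genes were fitted higher with a median of -0.04.

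Averaged over stress, cypermethrin was compared with vehicle over 8 against 8 libraries. Sst had a log2 difference of 0.22 ± 0.20 (SE), Npy 0.32 ± 0.26 and Cck 0.82 ± 0.62, with 95% intervals of -0.19 to 0.64, -0.20 to 0.85 and -0.46 to 2.10. Without vehicle replicate 1 that of Sst was 0.44 (edgeR, unadjusted p = 0.0248), and without cypermethrin replicate 4 it was 0.08, while that of Cck was 0.28 without both exposures replicate 2. Averaged over cypermethrin, stress had -0.32 ± 0.20 for Sst, 0.00 ± 0.26 for Npy and -0.47 ± 0.62 for Cck, with 95% intervals of -0.73 to 0.10, -0.52 to 0.53 and -1.74 to 0.80. Of the 6 tested members 4 were fitted higher with cypermethrin (51.1% of all genes) and 3 with stress (50% of all genes). No member had groups of 8 that did not overlap, against 0.0302% of all genes for cypermethrin and 0% for stress. The stress difference of Sst was -0.11 without vehicle replicate 1, and that of Cck was -1.02 without both exposures replicate 2. Without the library labelled stress replicate 1, cypermethrin averaged over stress had 0.19 for Sst, 0.34 for Npy and 0.62 for Cck, and stress averaged over cypermethrin had -0.28 for Sst, -0.01 for Npy and -0.28 for Cck. Pnoc, in the edgeR fit without a count filter, had a log2 difference of 2.76 ± 1.26 (SE) for cypermethrin averaged over stress. Its unadjusted edgeR p was 0.0320 (adjusted p = 0.752), which was 0.139 without cypermethrin replicate 3 and 0.0432 without the library labelled stress replicate 1. For stress averaged over cypermethrin it had -3.79 ± 1.34 (SE), with an unadjusted edgeR p of 0.00604 (adjusted p = 0.673). Counts of Pnoc were present in 7 of 8 unrestrained and 3 of 8 restrained libraries. Without cypermethrin replicate 3, its library of 41 counts, the unadjusted edgeR p for stress was 0.0426, and without the library labelled stress replicate 1 it was 0.00936. Both averages include the stress group, which had no Pnoc count, so the sizes of these differences are not fixed by counts alone. The share of all genes with such p-values in the fit without the filter is not given here.

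For Tac1, Penk and Pdyn the standard errors of the log2 differences lay between 1.02 and 2.29, so only changes of many-fold could have been seen. Their smallest unadjusted p over the 6 comparisons was 0.271, that of Pdyn with cypermethrin alone (-1.68 ± 1.5, SE), which was -0.41 without vehicle replicate 2. Without the library labelled stress replicate 1, which held 10 of the 15 Tac1 counts of its group, Tac1 differed by -2.51 with stress alone in place of -0.84 (edgeR, unadjusted p = 0.180). Nts and Vip had too few counts for a comparison.

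**Figure D4:**
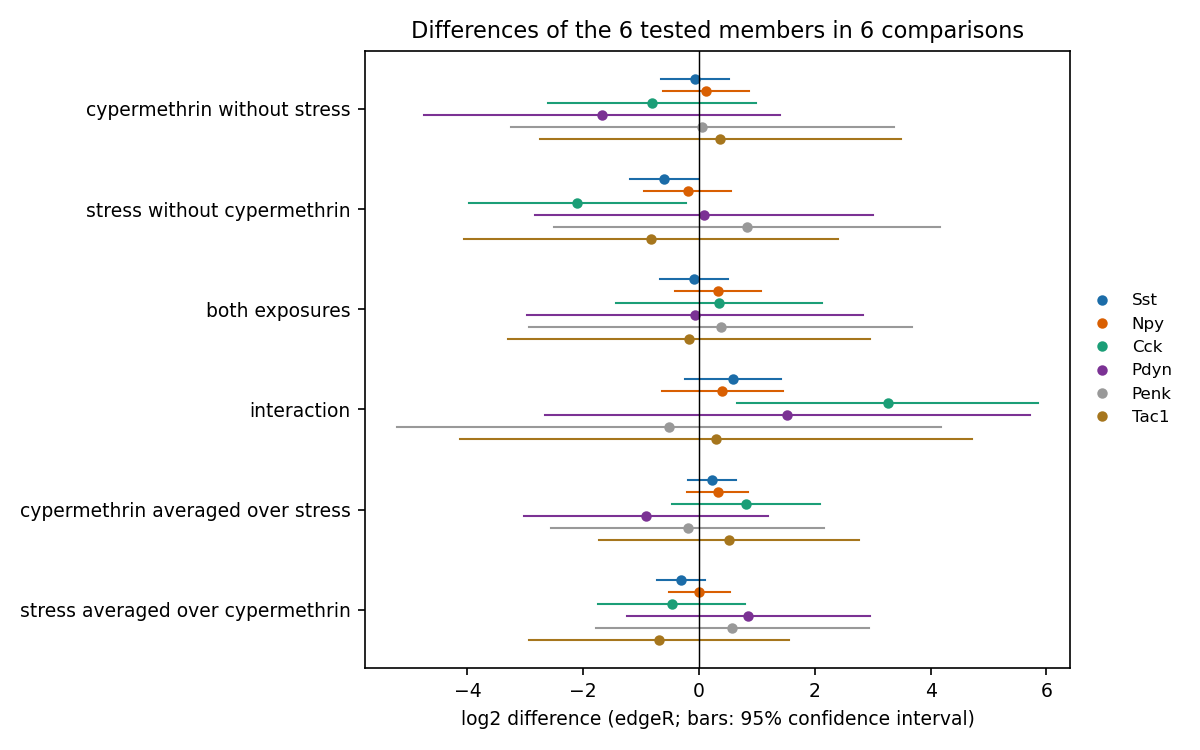
Log2 differences of the 6 tested members in the 6 comparisons, by edgeR, with bars for the 95% confidence interval. The intervals of Cck with stress without cypermethrin (-3.98 to -0.22) and in the interaction (0.66 to 5.86) and that of Sst with stress without cypermethrin (-1.20 to -0.02) lie to one side of 0 before adjustment over all genes, and the others cross it.

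Lists of genes that receive, process and accompany these peptides were measured in the same libraries. Of 26 neuropeptide receptor genes 23 had a count and 11 could be tested, and 0 were called in any comparison. Sort1, which encodes sortilin, a sorting receptor that also binds neurotensin, had the highest level per kb of the list (26.9 CPM per kb) and a log2 difference of 0.51 ± 0.21 (SE) with cypermethrin alone, from 179 ± 24.5 to 256 ± 54.9 CPM (SD, n = 4), with an adjusted edgeR p of 0.999 (unadjusted 0.0230). Its 4 cypermethrin libraries (213, 221, 256 and 333 CPM) all lay above the 4 vehicle libraries (156, 190, 209 and 163 CPM), and 2.52% of all genes had groups that did not overlap in one direction or the other. Within the library codes the difference was 0.30, with only 1 cypermethrin library, and 0.54. Npy1r, a receptor of neuropeptide Y, had 7.99 ± 5.84 CPM with vehicle and 22.6 ± 21.3 CPM with stress (SD), a log2 difference of 1.48 ± 0.91 (SE) and an adjusted edgeR p of 0.966, which was 0.81 without stress replicate 3 and 1.25 without the library labelled stress replicate 1. Crhr2, Sstr5 and Npy5r had no count in any library and are named after their values were seen. Oprl1, the receptor gene for nociceptin, had 33.8 ± 13.4 CPM (SD, n = 16), and Sstr1 and Sstr2, of the somatostatin receptors, had 6.72 ± 5.46 and 4.46 ± 4.78 CPM, likewise named after their values were seen. The count of Sstr2 is uncertain because the gene Slc39a11 lies at the same place and strand use is not stated.

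Of 18 genes for prohormone processing and dense-core granules all had a count and 16 were tested, and 0 were called. Scg3, which encodes the granin secretogranin III, had the highest level per kb (78.6 CPM per kb, or 215 ± 30.2 CPM, SD, n = 16). Scg2, which encodes secretogranin II, had a log2 difference of -3.01 ± 1.05 (SE) with stress alone, from 38.3 ± 26.5 to 4.58 ± 4.24 CPM (SD, n = 4), with an adjusted edgeR p of 0.965 (unadjusted 0.00919). Its levels were 55.9, 2.40, 34.3 and 60.5 CPM with vehicle and 0, 9.71, 2.49 and 6.13 CPM with stress, so the groups overlapped through vehicle replicate 2. The difference was -2.63 without the library labelled stress replicate 1, and within the library codes it was -2.54 and -3.42. Scg5, which encodes the 7B2 chaperone of a prohormone convertase, had 1.00 ± 0.40 (SE) in the same comparison, from 35.98 ± 18.4 to 72.5 ± 38.1 CPM (SD), and 0.57 without the library labelled stress replicate 1, which had 129 CPM. Within the library code that holds that library it was 1.81, and within the other it was 0.25.

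Among 26 other neuropeptide genes 21 had a count and 4 were tested, and 0 were called. Nmb, the neuromedin B gene, had the highest level per kb (6.15 CPM per kb), and its count is uncertain because the gene Sec11a lies at the same place and strand use is not stated. Cort, which encodes cortistatin, a peptide closely related to somatostatin, had 3.77 CPM per kb, against 275 for Sst. With stress averaged over cypermethrin it had a log2 difference of 1.16 ± 0.88 (SE, edgeR adjusted p = 0.960), and 1.24 without the library labelled stress replicate 1. Adcyap1, which encodes the peptide PACAP, had levels of 11.1, 6.68, 2.52 and 19.0 CPM with vehicle and 0, 0, 0.356 and 6.13 CPM with stress, a log2 difference of -2.50 ± 1.30 (SE) and an adjusted edgeR p of 0.965. It was -5.96 without stress replicate 4, the library at 6.13 CPM, and -2.12 without the library labelled stress replicate 1.

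Of 10 peptide-degrading enzymes all were tested, and 0 were called. Ece1, the endothelin-converting enzyme gene, had the highest level per kb (12.1 CPM per kb). Mme, which encodes neprilysin, had an interaction of -1.05 ± 0.54 (SE, edgeR adjusted p = 0.985), and Ide, the insulin-degrading enzyme gene, had 0.69 ± 0.60 (edgeR adjusted p = 0.994), which was 1.14 without cypermethrin replicate 4 and 0.39 without both exposures replicate 1. The interactions were -1.18 for Mme (edgeR, unadjusted p = 0.0327) and 0.67 for Ide without the library labelled stress replicate 1. Of 20 transcription factor genes of peptidergic interneurons 18 were tested, and 0 were called. Zeb2, which encodes a repressor needed for interneuron migration, had the highest level per kb (135 CPM per kb), and it shares its place with Zeb2os. Etv1, an ETS factor gene, had a log2 difference of 1.62 ± 0.64 (SE) with cypermethrin alone (edgeR adjusted p = 0.999, unadjusted 0.0168). The difference was 0.74 without cypermethrin replicate 4, the library at 174 CPM. Within the library codes it was 0.80, with only 1 cypermethrin library, and 1.48. Dlx1, a homeobox gene of the subpallium that overlaps Dlx1as, had -0.46 ± 0.24 (SE) with cypermethrin averaged over stress (edgeR adjusted p = 0.981), and -0.28 without the library labelled stress replicate 1.

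Likeness to other genes was measured as Pearson's r of log2 CPM over the 16 libraries, for the members with at least 10 counts in each library, which were Sst and Npy. Among the 3 tested genes most like Sst were Cd47 (r = 0.83) and Cyb561d2 (0.83), and the 3 most like Npy were Taz (0.76), Myom1 (0.75) and Ipcef1 (0.75). These were picked as the highest among all tested genes, the values share libraries and depth, and the median gene had r of 0.02 with Sst and 0.01 with Npy. Cyb561d2 and Myom1 were each at 0 in at least 1 library.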

How the data were processed

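The authors deposited raw read counts per gene for 16 libraries, from reads aligned to mm10 by STAR 2.5 (source: the submitters' processing notes). No source used here gives the counter, its annotation or its strand setting. Total counts ran from 2291283 to 4324129 per library (median 3695782.5). Groups were taken from the labels, with replicates numbered in accession order.

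Genes were kept by edgeR's filterByExpr (minimum count 10), which left 13224 of 24539, scaled by TMM and fitted over all 4 groups with robust quasi-likelihood tests (R 4.3.3, edgeR 4.0.16). P-values were adjusted by Benjamini-Hochberg over all tested genes. The procedure was run on simulated data for cypermethrin averaged over stress only. That run does not measure what the other comparisons could have detected. CPM are counts over TMM-scaled library sizes, and values per kb use GENCODE exon unions. Alternatives were RLE scaling, library totals, no filter, DESeq2 1.42.0, limma voom 3.58.1, the library code, only the groups compared, and leaving out each library. Each litter gave 1 embryo. All members are reported. From each related list the gene with the highest level per kb and those with the smallest p were named. Members and lists were chosen with earlier results of these data known. A gene that the likeness rule names is not reported here.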

Additional observations from a re-analysis of the deposited data

Results flagged for a closer look

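In 6 of the 31 sets of 4 libraries of 1 member and 1 group that had any spread, the highest library stood apart from the rest, with a gap to the next above Dixon's 95% critical value. That value is passed by chance in about 1 in 20 sets of normal values, a rate that does not apply here: all 6 concern genes of few counts, and a set with 1 library above 0 passes it by construction. Pnoc was at 10.9 CPM (41 counts) in cypermethrin replicate 3, where the next library had 1.23 CPM. Penk was at 4.38 CPM (17 counts) in vehicle replicate 4, where the next had 0.267 CPM, and at 5.77 CPM (25 counts) in both exposures replicate 2, where the next had 0.662 CPM. Nts was at 1.32 CPM (6 counts) in both exposures replicate 3 and at 0.504 CPM (2 counts) in cypermethrin replicate 1, with the other libraries of both groups at 0. Vip was at 0.267 CPM, a single count, in vehicle replicate 2, with the others at 0.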

How the results depend on the processing

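None of the 6 tested members was called under any alternative, and 807 of 875 recomputed member differences kept their direction, while 68 reversed, in 18 of 36 differences. Many of the 875 left out a library of a group that was not compared, which can hardly move a difference. Sst with cypermethrin without stress, for example, was -0.072 with all libraries and -0.067 without stress replicate 1. The share that kept direction is therefore no measure of stability. Over all genes, where 0 were called in each comparison, the libraries of the first code alone called 2 with cypermethrin without stress, 45 with stress without cypermethrin, 13 with both exposures, 9 in the interaction, 14 with cypermethrin averaged over stress and 7 with stress averaged over cypermethrin. In that code 1 cypermethrin library stands alone and is assumed to vary like the other groups. For cypermethrin averaged over stress DESeq2 called 1, and leaving out single libraries gave 0 to 1, the 1 without stress replicate 3. At an unadjusted p under 0.05 edgeR, DESeq2 and limma voom gave 491, 671 and 415 genes with cypermethrin without stress, 672, 880 and 432 with stress without cypermethrin, 197, 289 and 245 with both exposures, 622, 819 and 469 in the interaction, 607, 764 and 491 with cypermethrin averaged over stress and 679, 817 and 520 with stress averaged over cypermethrin.

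With cypermethrin without stress, leaving out single libraries gave -0.35 to 0.35 for Sst, -0.032 to 0.28 for Npy, -0.78 to 0.91 for Tac1 and -1.46 to 2.61 for Penk. Within the first code Npy was -0.19, within the second Sst was 0.18, Tac1 -0.82 and Penk -2.34, and with the code as a term Penk was -0.13. With stress without cypermethrin, Pdyn was -0.52 to 1.36 without single libraries, -0.00323 with the code as a term and -0.34 within the first code. With both exposures, single libraries gave -0.29 to 0.33 for Sst, -0.74 to 0.74 for Cck, -0.84 to 0.36 for Tac1, -2.25 to 2.94 for Penk and -0.98 to 1.2 for Pdyn. There limma voom gave 0.0695 for Sst, -0.59 for Cck and -0.11 for Penk, and the second code gave 0.23 for Sst, -0.15 for Cck, -2.65 for Penk and 1.64 for Pdyn. In the interaction, single libraries gave -0.37 to 1.96 for Tac1 and -3.14 to 1.00 for Penk, limma voom gave -0.51 for Pdyn, and the first code gave -1.74 for Tac1 and -4.49 for Pdyn. With cypermethrin averaged over stress, single libraries gave -0.0634 to 1.36 for Tac1 and -1.51 to 1.08 for Penk, and the first code gave 3.03 for Penk. With stress averaged over cypermethrin, single libraries gave -0.0992 to 0.0818 for Npy and -0.73 to 1.86 for Penk, and the first code gave -2.59 for Pdyn. The cause of these reversals was not tested.

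The alternatives for the related genes and for Pnoc without a count filter were added after seeing the data, and none of them reversed. No paired analysis was possible because the replicate numbers come from accession order and pair no libraries.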
